A study of Mus musculus with 6 samples.

Results

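The expression of 10 genes known to rise in sensory neurons when their axons are cut was followed in dorsal root ganglia (DRGs) of mice lacking Tlx3 in nociceptors. The genes were Ecel1, Atf3, Sprr1a, Sox11, Gadd45a, Csf1, Flrt3, Jun, Smad1 and Gap43, and all 10 were among the 20006 genes tested. They were selected on background knowledge of axotomy and because Ecel1 was strongly raised in these same libraries, so the values of the 10 genes in the contrast between genotypes are a description and carry no p. The control mice, labelled wild type, were compared with mice labelled Tlx3f/f;SNS-cre, called Tlx3cko below. All were C57BL/6 mice of about 2 months, with 3 libraries a group, and no nerve lesion is given in the labels. In the conditional mutant a Cre recombinase driven by the promoter of Nav1.8 (Scn10a) removes a floxed Tlx3, a homeodomain transcription factor, from nociceptive neurons, whereas other DRG neurons, glia and vessels keep the gene. RNA came from whole DRGs of the cervical, thoracic and lumbar levels, so a change in the number of a type of cell and a change in RNA per cell cannot be told apart.

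Library totals ranged from 11458299 to 18775628 counts. Counts were scaled by edgeR's TMM method to a common library size and are called normalized counts. Genes were tested across the whole table by edgeR, and the threshold below is a Benjamini-Hochberg adjusted p under 0.05. Counts on the targeted Tlx3 were 1828, 2262 and 2433 for control replicates 1, 2 and 3, against 1717, 1052 and 1475 for Tlx3cko replicates 1, 2 and 3, with a log2 fold change of -0.46 and a standard error (SE) of 0.09. The female transcript Xist had 591 and 493 counts, and the Y-linked Ddx3y 0, in the first and second control libraries, while the third control and all Tlx3cko libraries had at most 2 on Xist and 273 to 525 on Ddx3y. Genotype was therefore in part confounded with sex, and values from a fit with a term for Y-linked counts are given where they matter. In that fit the genotype difference rests on control replicate 3 alone, the only control with Ddx3y counts, against the Tlx3cko libraries. Whether sex or the reliance on that library moves a value or a call in the fit was not tested. The 8 sensory neuron markers summed to between 118300 and 125700 normalized counts in controls and between 123300 and 131500 in Tlx3cko libraries, with 0 of 8 past the threshold. The 8 skeletal muscle markers, which are no part of a ganglion, summed to between 114.1 and 2085 normalized counts in controls and between 1646 and 2906 in Tlx3cko libraries, with 1 of 8 (Myh4) higher past the threshold and none at 0 in all libraries. The part of sex and of muscle RNA in the results was not tested.

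Axotomy switches DRG neurons from a transmitting to a growing state. Retrograde signals through the kinase DLK and JNK activate Jun, which acts with Atf3, Sox11, Stat3 and Smad1 to raise growth proteins such as Gap43 and Sprr1a and secreted signals such as Csf1, the neuronal ligand that acts on microglia and macrophages. Many genes of intact nociceptors fall at the same time. Atf3 is close to absent from uninjured sensory neurons and is widely used as a marker of axonal damage. Ecel1, also called DINE for damage-induced neuronal endopeptidase, encodes a membrane metallopeptidase of the M13 family that is raised by axotomy and takes part in axon arborization. Binding sites of the AP-1 family, to which Jun and Atf3 belong, are common in the regulatory regions of injury genes.

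Promoter letters are shown for Ecel1, Atf3 and Sprr1a, the members that stood at least 2-fold apart in 1 Tlx3cko library (below). Upstream windows of 250 bases before the RefSeq start (GRCm38.p6) were at hand for 9 of the 10 members, all but Gap43, and are printed 5′ to 3′ on the minus strand up to the first annotated exon. AP-1 sites (TGACTCA or TGAGTCA, which are 1 motif read on both strands) and TATA boxes (TATAAA or TTTATA) are in capitals.
Ecel1, chr1:87156522-87156606: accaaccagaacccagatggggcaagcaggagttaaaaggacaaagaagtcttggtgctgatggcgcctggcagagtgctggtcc
Atf3, chr1:191183341-191183583: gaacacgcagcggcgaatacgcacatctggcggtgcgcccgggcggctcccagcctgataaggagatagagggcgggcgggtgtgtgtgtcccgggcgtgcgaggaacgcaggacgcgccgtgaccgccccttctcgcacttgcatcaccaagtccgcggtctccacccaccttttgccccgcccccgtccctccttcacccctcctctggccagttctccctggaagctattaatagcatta
Sprr1a, chr3:92485896-92486131: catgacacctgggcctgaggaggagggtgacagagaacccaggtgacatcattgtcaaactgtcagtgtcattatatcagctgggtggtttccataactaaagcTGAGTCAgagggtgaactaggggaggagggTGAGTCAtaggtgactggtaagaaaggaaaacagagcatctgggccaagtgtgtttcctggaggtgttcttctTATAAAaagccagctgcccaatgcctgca
In Sprr1a the AP-1 sites lay 146 to 140 and 116 to 110 bases before the start, and the TATA box 43 to 38 bases before it. None of the other 8 members with a window held an AP-1 site or a TATA box, and across 32851 promoters the AP-1 letters were found in 4.46% and the TATA letters in 12.4%. The cAMP response element TGACGTCA was in 0 of the 9 windows and in 1.55% of all promoters. Its 5-base core TGACG or CGTCA, which overlaps the full element, was in the windows of Atf3 (outside the stretch printed) and Smad1 and in 17.8% of all promoters. The homeodomain core TAATTA was in 0 of the 9 windows and in 4.84% of all promoters. These are matches of letters in 1 short window, not sites shown to be bound. The Atf3 window lies inside the annotated span of the gene (191170296 to 191218039), and the stretch before that span was not searched.

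Ecel1 (ENSMUSG00000026247, chromosome 1, 87147655 to 87156521, minus strand, 20 exons) was nearly silent in control DRGs and was present in every Tlx3cko library. Its counts were 3, 12 and 20 in control replicates 1, 2 and 3 against 311, 98 and 132 in Tlx3cko replicates 1, 2 and 3. The groups did not overlap, and the lowest Tlx3cko library had several times the counts of the highest control. The normalized level was 10.39 ± 6.5 (SD, n = 3) in controls and 185.9 ± 98.2 (SD, n = 3) in Tlx3cko DRGs, a 17.9-fold difference. The log2 fold change was 4.10 (SE 0.45, 95% interval 3.12 to 5.07). Tlx3cko replicate 1 had 299.3 normalized counts, against 128.6 and 129.9 in replicates 2 and 3, and without that library Ecel1 was still 12.4-fold higher (log2 fold change 3.57). In all 14 alternative fits, the term for Y-linked counts and each library left out included, the log2 fold change stayed between 3.54 and 4.57. As a level per kilobase of exon, scaled for library size, Ecel1 went from 0.198 ± 0.124 to 3.54 ± 1.89 (SD, n = 3 each), and its control level ranked at the 19.5th percentile of detected protein-coding genes.

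**Figure D1:**
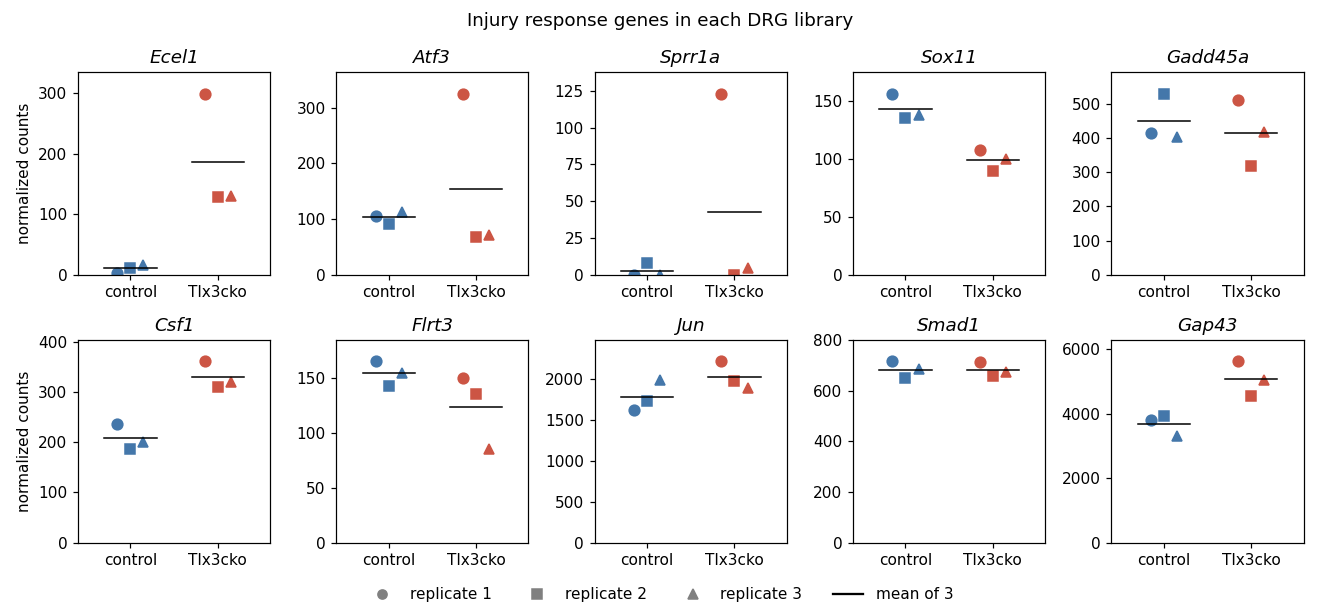
Normalized counts (y axis, linear, from 0) of the 10 injury response genes in each library, with controls in blue and Tlx3cko in red, symbols for the replicate number and a line at the mean of 3. Ecel1 is above all controls in every Tlx3cko library, whereas the Tlx3cko means of Atf3 and Sprr1a are set by replicate 1 (325.3 and 123.2 normalized counts).

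The neighbours of Ecel1 on chromosome 1 were at or near 0 in both groups. The 3 nearest protein-coding genes on each side, Alppl2, Alpi and Akp3 on one and Prss56, Chrnd and Chrng on the other, had at most 4 counts in any library, and none reached the 10 counts needed for a test. Related peptidases of the M13 family were measured beside it. Mme, which encodes neprilysin, a peptidase that degrades enkephalins and substance P, had 354, 233.4 and 171.5 normalized counts in controls and 533.2, 615.4 and 664.3 in Tlx3cko libraries. Mme was higher in all 3 Tlx3cko libraries (log2 fold change 1.27, SE 0.21, adjusted p = 0.00276 by edgeR's quasi-likelihood test, Benjamini-Hochberg adjusted, at most 0.0209 over the alternatives). The endothelin-converting enzymes Ece1 and Ece2 had log2 fold changes of 0.08 (SE 0.08) and 0.08 (SE 0.09) and did not pass. Of the 6 relatives listed, 4 had counts enough for a test and 1 passed.

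Among the transcription factors, none passed the threshold in the contrast and they did not share a direction. Atf3 (chromosome 1, 191170296 to 191218039), a stress-induced factor of the AP-1 and CREB superfamily, had 97, 92 and 141 counts in controls and 338, 51 and 72 in Tlx3cko libraries. Replicate 1 of Tlx3cko was the highest of all 6 libraries and the other two were the lowest after normalization, at 66.92 and 70.86 against 91.76 to 112.5 in control. The means were 103 ± 10.5 in controls and 154.4 ± 148 in Tlx3cko (SD, n = 3 each), with a log2 fold change of 0.60 (SE 0.47, 95% interval -0.41 to 1.61). Without Tlx3cko replicate 1 the direction turned, to -0.58 (SE 0.23). Jun (chromosome 4, 95049034 to 95052222), the AP-1 partner activated by JNK, had 1777 ± 191 normalized counts in controls and 2023 ± 167 in Tlx3cko (SD, n = 3 each). Its groups overlapped, and the log2 fold change of 0.19 (SE 0.10) fell to 0.03 with the term for Y-linked counts. Sox11 (chromosome 12, 27334264 to 27342574), a SOXC factor of embryonic and regenerating neurons, had 145, 136 and 173 counts in controls and 112, 68 and 102 in Tlx3cko libraries. All 3 Tlx3cko values lay below all 3 controls after normalization, at 99.13 ± 9.34 against 143.4 ± 11.4 (SD, n = 3 each; log2 fold change -0.53, SE 0.18, 95% interval from -0.91 to -0.14). Smad1 (chromosome 8, 79338395 to 79399518), which carries BMP signals to the nucleus, had 683.8 ± 33.8 and 682.4 ± 28.9 normalized counts in control and Tlx3cko DRGs (log2 fold change 0.00, SE 0.10, between -0.04 and 0.03 in the alternatives).

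Of the growth-associated genes, Gap43 rose in the contrast and Sprr1a was high in a single library. Gap43 (chromosome 16, 42248442 to 42340651), a growth cone phosphoprotein, had 3519, 3946 and 4143 counts in controls and 5832, 3459 and 5127 in Tlx3cko libraries. After normalization the groups did not overlap, at 3680 ± 332 in controls and 5066 ± 537 in Tlx3cko (SD, n = 3 each; log2 fold change 0.46, SE 0.09, 95% interval 0.26 to 0.66). It was the most abundant member, at 162 in controls and 222 in Tlx3cko DRGs per kilobase of exon. Gap43 kept its place past the threshold in every alternative fit but the one without control replicate 3 (log2 fold change 0.39), and the term for Y-linked counts raised its log2 fold change to 0.62. Sprr1a (chromosome 3, 92483952 to 92485895), a small proline-rich protein of the epidermis that injured neurons also make and that promotes axon outgrowth, had 0, 8 and 0 counts in controls and 128, 0 and 5 in Tlx3cko libraries. Tlx3cko replicate 1 held nearly all of its counts, and the other Tlx3cko libraries lay within the control range. The normalized means were 2.66 ± 4.61 for control and 42.7 ± 69.7 for Tlx3cko (SD, n = 3 each), and the fitted log2 fold change of 4.03 (SE 1.43) went to 0.04 (SE 1.52) without Tlx3cko replicate 1. Without control replicate 2 the comparison was against control libraries at 0, and with the term for Y-linked counts it was against control replicate 3 alone, also at 0. The fitted value of 8.45 then depends on the prior count. Sprr1a reached 10 counts only with the Tlx3cko libraries, whereas the other 9 members did so in control alone.

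Csf1 was the signalling member that rose. Csf1 (chromosome 3, 107741048 to 107760469), macrophage colony-stimulating factor, had 219, 187 and 251 counts in controls and 375, 237 and 326 in Tlx3cko libraries. The normalized level was 207.7 ± 25.8 for control and 330.9 ± 26.4 for Tlx3cko DRGs (SD, n = 3 each), with every Tlx3cko library above every control (log2 fold change 0.68, SE 0.14, 95% interval 0.37 to 0.98). Csf1 fell short of the threshold without control replicate 2, control replicate 3 or Tlx3cko replicate 1 (log2 fold changes 0.61, 0.65 and 0.61) and with the term for Y-linked counts (0.73). Flrt3 (chromosome 2, 140650914 to 140671469), a membrane protein that binds latrophilins and Unc5 receptors, had 154.2 ± 11.3 (control) and 123.6 ± 33.8 (Tlx3cko) normalized counts (SD, n = 3 each), with overlapping groups (log2 fold change -0.32, SE 0.21). Gadd45a (chromosome 6, 67035096 to 67037457), a growth arrest and DNA damage gene, had 449.6 ± 70.4 (control) and 416.1 ± 96.1 (Tlx3cko) normalized counts, also overlapping (log2 fold change -0.11, SE 0.17). Its log2 fold change turned to 0.03 without control replicate 2, 0.06 without Tlx3cko replicate 2 and 0.05 with the term for Y-linked counts. Genes on the opposite strand cover 19.1% of the exonic bases of Gadd45a and 7.28% of those of Jun, and the use of strand in counting is not given in the sources used here.

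Of the 10 members, 3 (Ecel1, Csf1 and Gap43) passed the threshold, all higher in Tlx3cko, beside 4.25% of all genes tested and 1.69% higher; since Ecel1 chose the list, nothing is read from this count. The groups did not overlap for 4 members, Sox11 being the fourth, beside 19.7% of all genes tested. The log2 fold change was above 0 for 6 members and below 0 for 4, with a median of 0.32 against 0.00 for all genes tested. Levels per kilobase of exon in control DRGs spanned a wide range, with Ecel1 and Sprr1a lowest (0.198 and 0.22), then Sox11 (1.16), Flrt3 (2.12), Csf1 (2.63), Atf3 (3.2), Smad1 (7.31), Gadd45a (17.1) and Jun (37.3) below Gap43. In Tlx3cko DRGs Csf1 stood at 4.17 and Sox11 at 0.794 on this scale.

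**Figure D2:**
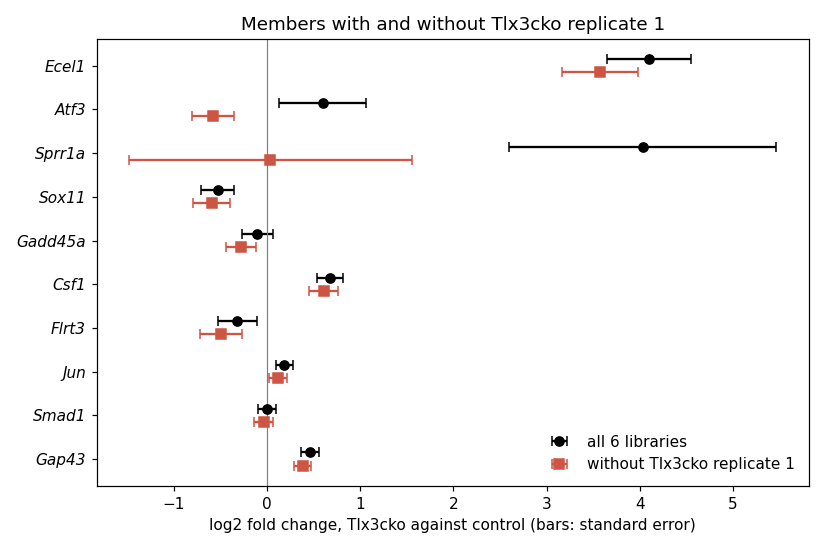
Log2 fold change of each member, Tlx3cko against control (x axis), with all 6 libraries (black circles) and without Tlx3cko replicate 1 (red squares); bars are standard errors. Ecel1 (4.10 and 3.57), Csf1 (0.68 and 0.61) and Gap43 (0.46 and 0.38) stay above 0, whereas Atf3 moves from 0.60 to -0.58 and Sprr1a from 4.03 to 0.04.

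Tlx3cko replicate 1 was the highest of the 3 Tlx3cko libraries for 10 of 10 members, beside 36.5% of the 17646 genes with a Tlx3cko mean of at least 5 normalized counts. Over the mean of the other Tlx3cko libraries its lead was 1.07-fold for Smad1 and 1.14-fold for Sox11, Csf1 and Jun. The lead was 1.17-fold for Gap43, 1.36-fold for Flrt3 and 1.39-fold for Gadd45a. For 6 members Tlx3cko replicate 1 was also the highest of all 6 libraries, beside 16.7% of the 17646 genes. Among them, Ecel1, Csf1 and Gap43 had every Tlx3cko library above every control, so a Tlx3cko library led all 6 in any case. Sprr1a reached the mean of 5 only through replicate 1. As Ecel1 also chose the list, nothing is read from the count of 6. In Tlx3cko replicate 1, Ecel1, Atf3 and Sprr1a were at least 2-fold above the mean of the other Tlx3cko libraries, beside 1.97% of genes. The ratio was 2.32 for Ecel1 and 4.72 for Atf3. With 1 normalized count added to each value, no counted member stood 2-fold above its group in any of the other 5 libraries, where 1.61% to 2.57% of genes did. In controls this covers 9 members, since the control mean of Sprr1a was under 5 normalized counts, and its 7.979 in control replicate 2 stood against 0 and 0. Without the added count, Ecel1 in control replicate 3 (15.95) was also over 2-fold above the mean of the other controls (3.238 and 11.97). Ranked by the log2 ratio of replicate 1 to the mean of the other two, again with 1 added, Sprr1a came at rank 1 of 17646, Atf3 at 30 and Ecel1 at 228. The mean of at least 5 needed for the ranking and for the 2-fold count included replicate 1. Sprr1a, at 0 and 4.921 in the other Tlx3cko libraries, reached that mean only through replicate 1, so its place is partly set by the filter. The same holds for Aif1, at 13.47 in replicate 1 and 3.937 and 0 in the others. The injury-induced neuropeptide Npy came at rank 3, with 2.159, 1.995 and 6.381 normalized counts in controls and 152.1, 10.5 and 0 in Tlx3cko libraries. Galanin, encoded by Gal and another peptide raised by axotomy, came at rank 347, with 542.8 in Tlx3cko replicate 1, 242.8 and 298.2 in the other Tlx3cko libraries and 241.8, 302.2 and 272.8 in control. Besides these, Aif1 (rank 26), Sdc1 (226), Gpr151 (250) and Bmp4 (324) made up the 6 of 125 counted genes of the injury lists below that were 2-fold higher there, while 2 to 5 genes of those lists stood out in each other library. Equally, 6 of the 125 were at least 2-fold lower in Tlx3cko replicate 1, beside 3.44% of the 17646 genes. Lif (log2 ratio -1.757) and Egr1 (-1.507) were among the 6. In each other library 0 to 7 listed genes were 2-fold lower than the rest of their group, beside 2.88% to 4.13% of genes. Ranks 2 and 4 to 8 were held by genes outside the lists, namely Prss41, Gm9825, the cholecystokinin receptor gene Cckbr, Gm6473, AA465934 and Aldoart2. They are named here after their values were seen. No member and no listed gene stood between ranks 3 and 26. The muscle marker sum was also highest in Tlx3cko replicate 1 (2906), the macrophage and lymphocyte sum was 385.9 there against 345.1 and 811.9 in the other Tlx3cko libraries, and their part in the pattern was not tested.

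**Figure D3:**
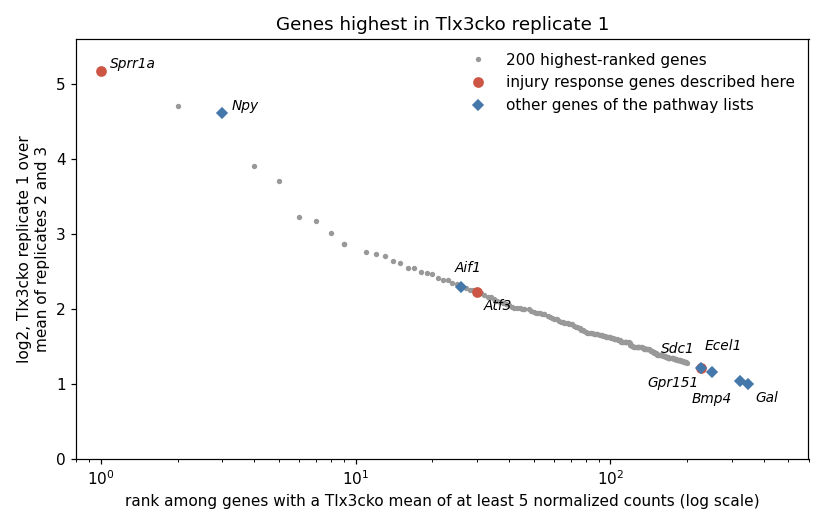
Log2 ratio of normalized counts in Tlx3cko replicate 1 to the mean of Tlx3cko replicates 2 and 3 (y axis) against rank among 17646 genes (x axis, log scale), for the 200 highest-ranked genes and for listed injury genes up to rank 347. Sprr1a (rank 1), Npy (rank 3) and Atf3 (rank 30) lie near the top of the ranking and Ecel1 at rank 228. Sprr1a entered the ranking only through its value in replicate 1.

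Lists of further genes tied to axon injury held 143 genes, of which 131 were tested, 8 were higher and 12 lower past the threshold (15.3%, beside 4.25% of all genes). Their median log2 fold change was 0.01. Of the 20 genes past the threshold, 8 were in the list of nociceptor genes that fall after axotomy. The lists were drawn up with earlier results of these data known, so nothing is read from the share of 15.3%. Of 11 other regeneration transcription factors 1 was higher and 2 were lower. The immediate early factor Egr1 had 204, 159.6 and 126.8 normalized counts in controls and 264.7, 1167 and 341.5 in Tlx3cko libraries, highest in Tlx3cko replicate 2 (log2 fold change 1.85, SE 0.44, adjusted p = 0.0302 by edgeR). Without Tlx3cko replicate 2 the log2 fold change was 0.91 (adjusted p = 0.0451), and the call was lost without control replicate 2 or 3 (adjusted p = 0.122 and 0.133), in DESeq2 and limma-voom and with the term for Y-linked counts. Sox4, a relative of Sox11, went from 630 ± 34.7 to 395.3 ± 38.2 normalized counts (SD, n = 3 each; log2 fold change -0.67, SE 0.11, adjusted p = 0.00327 by edgeR), with no overlap, and missed the threshold only with the term for Y-linked counts (adjusted p = 0.0813). The cytokine-responsive factor Stat3 was lower by a smaller step (log2 fold change -0.29, SE 0.07, adjusted p = 0.0414 by edgeR), and lost its call without control replicate 2 or 3 or Tlx3cko replicate 2 or 3 (log2 fold changes -0.32, -0.25, -0.26 and -0.28) and with the term for Y-linked counts (adjusted p = 0.0698). Klf7 and Atf4, the most abundant that did not pass, had log2 fold changes of -0.25 (SE 0.08) and 0.05 (SE 0.09). None of the 9 AP-1 and ATF partners passed (median log2 fold change 0.52). Jund and Atf2, the most abundant, were below 0 at -0.24 and -0.18, as was Jdp2 at -0.07. Fos (1.05, SE 0.36) and Fosl2 (0.58, SE 0.18) had groups that did not overlap. Both were highest in Tlx3cko replicate 2, at 392.3 and 620.7 normalized counts. None of 15 genes of BMP and Smad signalling passed (median 0.00, with the receptor Bmpr2 at 0.17 and Smad9 at 0.03). The same held for 9 of the Gadd45 and p53 group (median -0.08, with Cdkn1a at 0.06 and Ddit3 at -0.08). It held as well for 11 DLK and JNK kinases and scaffolds (median 0.11, with Mapk8ip3 at 0.07 and Mapk8ip1 at 0.15).

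**Figure D4:**
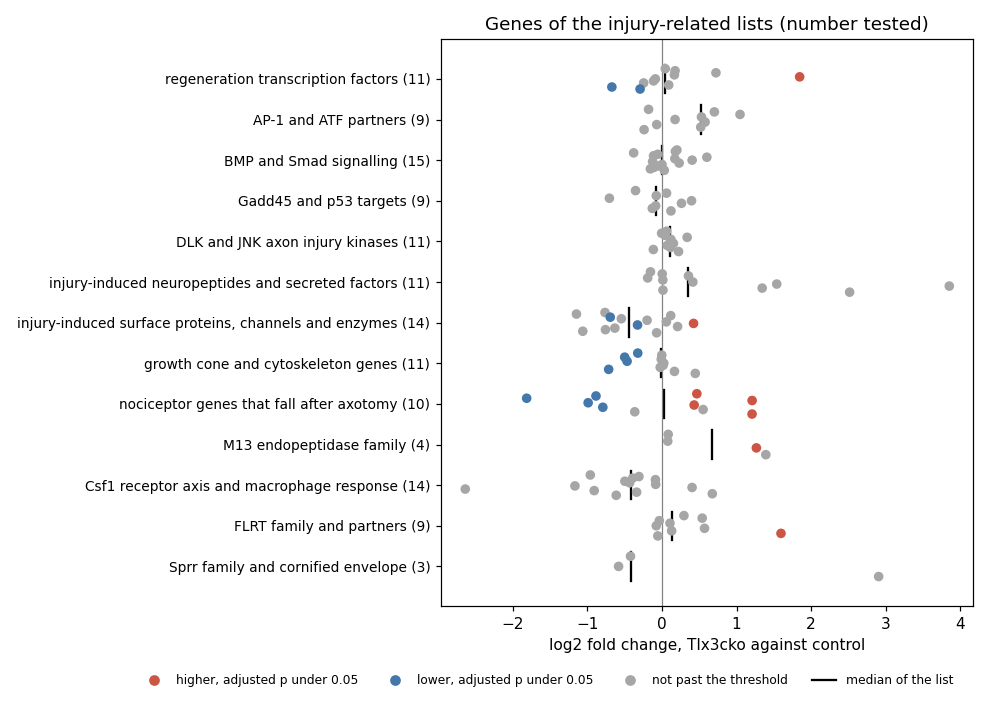
Log2 fold change (x axis) of each tested gene in the 13 injury-related lists, 1 row a list with the number tested; red and blue points are genes higher and lower in Tlx3cko at an adjusted p under 0.05, grey points did not pass, and the black line is the list's median. Calls are mixed in direction among nociceptor genes (4 higher, 4 lower) and all lower among growth cone genes (4 lower).

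Growth cone and cytoskeleton genes other than Gap43 were lower or did not pass. Of 11 tested, 4 were lower and 0 higher, with a median log2 fold change of -0.01. The tubulin gene Tubb2b went from 5344 ± 432 to 3257 ± 264 normalized counts (SD, n = 3 each; log2 fold change -0.71, SE 0.09, adjusted p = 0.000259 by edgeR) and passed in every alternative. Marcks (-0.47, SE 0.10), Basp1 (-0.32, SE 0.07) and the collapsin response mediator Dpysl2 (-0.50, SE 0.13) were lower with adjusted p of 0.0129, 0.0248 and 0.0497 by edgeR. All 3 missed the threshold with the term for Y-linked counts and without control replicate 2 (log2 fold changes -0.39, -0.29 and -0.55) or Tlx3cko replicate 3 (-0.43, -0.30 and -0.54). Basp1 (-0.30) and Dpysl2 (-0.55) missed it without Tlx3cko replicate 2 as well, and Dpysl2 also without control replicate 1 (-0.32) or Tlx3cko replicate 1 (-0.40). The abundant tubulins Tuba1a and Tubb3 had log2 fold changes of -0.02 (SE 0.06) and 0.17 (SE 0.07) and did not pass.

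Among 14 injury-induced surface proteins, channels and enzymes, 1 was higher and 2 were lower. Cd44, a hyaluronan receptor, had 2168, 2224 and 2683 normalized counts in controls and 1541, 1394 and 1442 in Tlx3cko libraries (log2 fold change -0.69, SE 0.09, adjusted p = 0.000734 by edgeR, at most 0.00896 over the alternatives). The small heat shock protein gene Hspb1 was higher (log2 fold change 0.42, SE 0.09, adjusted p = 0.0179 by edgeR), with the call lost without control replicate 1 (0.36) or Tlx3cko replicate 2 (0.36) or 3 (0.43) and with the term for Y-linked counts (adjusted p = 0.293). Il6st, the gp130 receptor subunit, was lower (log2 fold change -0.33, SE 0.08, adjusted p = 0.0288 by edgeR) and lost its call without any 1 library other than control replicate 1 (adjusted p from 0.0541 to 0.127) and with the term for Y-linked counts (adjusted p = 0.0515), with log2 fold changes of -0.34 and -0.28 without control replicates 2 and 3 and of -0.28, -0.37 and -0.32 without Tlx3cko replicates 1, 2 and 3. Itga7 and Gfra1 had log2 fold changes of 0.21 (SE 0.08) and -0.20 (SE 0.11). Of 14 neuropeptides and secreted factors 11 were tested and none passed; Vgf and Adcyap1, the most abundant, had log2 fold changes of 0.01 (SE 0.17) and -0.15 (SE 0.11), and Npy had 3.85 (SE 1.25, adjusted p = 0.125 by edgeR).

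Genes of intact nociceptors that fall after axotomy moved both ways. Of 10 tested, 4 were higher and 4 lower. The heat and capsaicin channel gene Trpv1 rose from 2237 ± 303 to 5168 ± 346 normalized counts (SD, n = 3 each; log2 fold change 1.21, SE 0.10). Mrgprd, a receptor of non-peptidergic neurons, fell from 2656 ± 480 to 759.7 ± 192, and the ATP-gated channel gene P2rx3 from 3727 ± 605 to 1879 ± 229 (log2 fold changes -1.81 and -0.99, SE 0.16 and 0.12). These 3 genes passed in every alternative. Scn10a and Calca also rose, and Scn11a and Kcna4 also fell. Trpa1 and Tac1 had log2 fold changes of -0.36 (SE 0.17) and 0.55 (SE 0.15, adjusted p = 0.0611 by edgeR). Tac1 passed in DESeq2, without the filter and without control replicate 3 (log2 fold change 0.72), and Trpa1 passed without the filter and without control replicate 1 (-0.54).

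Partners of Csf1 and Flrt3 were set beside them. None of 14 genes of the Csf1 receptor and macrophage list passed, and their median log2 fold change was -0.41. The receptor gene Csf1r had 514.5 ± 27.5 normalized counts in controls and 485.7 ± 34.6 in Tlx3cko (SD, n = 3 each; log2 fold change -0.08, SE 0.11). Il34, the other ligand of that receptor, had 398.8 ± 21.1 (control) and 527.7 ± 51.8 (Tlx3cko) normalized counts with no overlap and missed the threshold (log2 fold change 0.40, SE 0.11, adjusted p = 0.069 by edgeR). The 6 macrophage and lymphocyte markers summed to between 662.1 and 1272 normalized counts in controls and between 345.1 and 811.9 in Tlx3cko libraries, with 0 of 6 past the threshold and none at 0 in all libraries. Lyz2, the most abundant of the macrophage list, had a log2 fold change of -0.91 (SE 0.28, adjusted p = 0.105 by edgeR) and passed without Tlx3cko replicate 3 (-1.38) and without the filter. Among 9 FLRT family members and partners 1 passed, the netrin receptor gene Unc5c, which rose from 181.6 ± 40.3 to 547.6 ± 37.1 normalized counts (SD, n = 3 each; log2 fold change 1.60, SE 0.15, adjusted p = 4.5e-05 by edgeR). Adgrl1, a latrophilin, had a log2 fold change of 0.30 (SE 0.08, adjusted p = 0.0537 by edgeR), passing in 6 of 14 alternatives, the fit without control replicate 1 (0.35) among them, and the receptor Fgfr1 had 0.11 (SE 0.09). Of 10 genes of the Sprr family and the cornified envelope of skin, 3 had counts enough for a test and none passed, and the 6 keratinocyte markers summed to between 103.6 and 121.2 normalized counts in controls and between 69.3 and 95.79 in Tlx3cko libraries, with 1 of 6 (Krt5) at 0 in all.

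Over the 6 libraries, the genes whose log2 normalized counts (1 added) were most like those of Ecel1 among 13372 genes with a mean of at least 50 were an unannotated locus (Pearson r = 0.996), Gm15894 (0.990), the co-chaperone gene Bag3 (0.989), Bcl10 (0.988) and the glutamate receptor gene Grm8 (0.987). Their own changes were small, with log2 fold changes of 0.49, 0.45, 0.28, 0.49 and 0.44. The points share their libraries and fall into the groups of genotype, so the values of r are a description. No other member was among these 5 genes.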

How the data were processed

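DRG transcriptomes of 3 control and 3 Tlx3cko mice were measured by RNA sequencing, and the authors deposited raw read counts for each gene with no normalization. The submitters' processing notes name STAR 2.5.2a and mm10; the counting program and its use of strand are not given in the sources used here. The table has 47937 rows, of which 47224 were matched to a symbol. Positions and exons were those of GENCODE M21. The 208 unannotated rows held 0.199% to 0.269% of counts and stayed in the fit. Columns were matched to samples by the labels' titles. The members and all lists were chosen with earlier results of these data known.

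Genes with at least 10 counts in total were fitted in R 4.3.3 with edgeR 4.0.16 (TMM, glmQLFit, glmQLFTest) without covariates, as the study used no pairing, with Benjamini-Hochberg adjusted p under 0.05 over all 20006 genes as the threshold. Standard errors were computed as the log2 fold change over the square root of F. Levels per kilobase used the union of exons. The model was tested on simulated data. Genes named are the 10 members; per list, up to 4 genes past the threshold with the largest changes and the 2 most abundant that did not pass; the 3 neighbours on each side of Ecel1; the 5 genes most like Ecel1; and Tlx3, Xist and Ddx3y. Genes that led the ranking of Tlx3cko replicate 1, Il34, Npy, Gal, Fos, Fosl2, Jdp2, Scn10a, Scn11a, Calca and Kcna4 were named after their values were seen. A gene covered by this rule is not reported here. Replicates of a genotype differed by more than sampling noise (chi-square per degree of freedom 4.46 to 10.7). The study gives 3 mice a genotype, and the labels do not say whether DRGs were pooled. Alternatives were DESeq2 1.42.0, limma-voom (limma 3.58.1), other normalizations and filters, the replicate number as a block, a term for Y-linked counts and each library left out in turn.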

Additional observations from a re-analysis of the deposited data

How the results depend on the processing

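The 851 genes past the threshold, 339 of them higher, became 1529 and 671 without the filter on low counts, and 487 and 153 with a term for Y-linked counts. Leaving out 1 library at a time gave 488 to 938 genes, 175 to 408 of them higher, and the total fell by over 1.5 times when the left-out library was control replicate 2 (530) or Tlx3cko replicate 2 or 3 (488 and 512). The 20 listed injury genes past the threshold became 35 without the filter and 12 with the term for Y-linked counts, and 14 to 22 with 1 library left out. Same-numbered libraries did not deviate together (correlations of their deviations -0.0674, -0.0136 and -0.0578). No pairing by number was seen, though 3 libraries a group cannot exclude one. With the replicate number as a block 770 genes passed, 308 higher, with 18 listed injury genes and a log2 fold change of Ecel1 of 3.98. The block took Stat3, Dpysl2 and Basp1 below the threshold (adjusted p = 0.0819, 0.0663 and 0.0533 by edgeR), and Dpysl2 also missed it in limma-voom and with filterByExpr. Changes of sign touched genes that did not pass. Log2 fold changes with the term for Y-linked counts were -0.044 for Smad9, -0.062 for Cdkn1a, -0.038 for Vgf, 0.007 for Tuba1a and 0.005 for Csf1r. With 1 library left out they ranged from -0.034 to 0.137 for Atf4, -0.059 to 0.085 for Smad9, -0.034 to 0.130 for Cdkn1a, -0.202 to 0.170 for Vgf and -0.041 to 0.015 for Tuba1a. The cause of these moves was not tested. Depth limits Ecel1 and Sprr1a most, with at most 20 and 8 counts in any control library. With 3 libraries a group an exact permutation test of 1 gene cannot go below p = 0.1.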

Other observations

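Of 6 glial genes known to be raised around injured neurons (Gfap, Sox2, Vim, Shh, Gdnf and Olig1), 5 were tested and 0 passed the threshold, and Olig1 had too few counts for a test. The 6 genes summed to between 4733 and 6155 normalized counts in controls and between 5695 and 6772 in Tlx3cko libraries. Vim held most of this sum, with means of 4968 in controls and 5575 in Tlx3cko. Gfap had means of 39.34 in controls and 24.36 in Tlx3cko, and the groups overlapped for both genes. The 6 satellite glia markers summed to between 41240 and 50420 in controls and between 48080 and 53350 in Tlx3cko libraries, with 0 past the threshold. Of 6 Schwann cell markers (34530 to 41820 and 37190 to 42100), 1 was higher, Egr2 (log2 fold change 0.81, SE 0.18, adjusted p = 0.0241 by edgeR). Of 5 fibroblast and meningeal markers, Col1a1, Dcn and Pdgfra were lower (log2 fold changes -0.52, -0.39 and -0.79, SE 0.13, 0.10 and 0.19). Their adjusted p was 0.0346, 0.0395 and 0.0354 by edgeR. The 5 markers summed to 4280 to 4791 normalized counts in controls against 3312 to 3679 in Tlx3cko libraries. Marker calls here are from the fit without covariates, and those of the alternatives are not given. Of 5 endothelial markers, Pecam1 was higher (log2 fold change 0.66, SE 0.15, adjusted p = 0.0202 by edgeR), with sums of 732.3 to 909.9 and 993.2 to 1081. Sums were 1427 to 3719 and 1694 to 2295 for 5 blood markers and 123 to 223.4 and 115.5 to 298.2 for 6 spinal cord markers, with 0 past the threshold among the 5 and 3 of them that were tested and Mnx1 at 0 in all libraries.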
